A study of Mus musculus with 42 samples.

Results

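The comparison described here set 5 3xTg-AD mice against 6 C57BL/6 mice of the same age, treatment and electrode site, 11 of the 42 mice of the study. All were 6-month-old (6 mo.) sham mice with the electrode over the hippocampus, chosen by these labels and not by a measured value, and mice with the prefrontal electrode were left out. Among their altered genes, 3xTg-AD mice carry mutant human APP and tau transgenes, driven by the mouse Thy1 regulatory element, on a mixed genetic background that is only in part C57BL/6. C57BL/6 mice carry none of these and are inbred, so differences of the transgenes and of the background cannot be told apart in these groups. Reads of both strains were aligned to the mouse reference genome, which the paper says is that of C57BL/6. Whether reads of other alleles in 3xTg-AD mice were lost or counted at another gene was not tested. This holds for each gene given below. Both groups were male mice from colonies kept by the authors, had the electrode implanted under anaesthesia, and were handled as mice given transcranial direct current stimulation (tDCS) are, but without current. The 3xTg-AD mice are named O, P, R, S and AQ, and the C57BL/6 mice W, Y, AA, AY, AZ and BA. The question was how blood gene expression in the 3xTg-AD strain differs from that of C57BL/6 mice at an age at which the model is described as symptomatic.

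Whole blood RNA comes mostly from maturing red cells (reticulocytes), platelets and leukocytes. Reticulocytes still carry transcripts of haem synthesis and of the red cell membrane, platelets carry those inherited from megakaryocytes, and neutrophil granule genes are transcribed mainly in immature neutrophils. In such bulk samples, fewer cells of a type and less RNA per cell cannot be told apart.

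The libraries held 13451155 (AY) to 33362004 (O) reads on genes. Reads on haemoglobin genes made up 22.6% ± 5.26 in 3xTg-AD and 24.4% ± 7.74 in C57BL/6 mice (SD, n = 5 and 6), and 14180 to 15251 and 14004 to 15120 genes had a read. None of these measures differed by the exact permutation test (two-sided, adjusted p = 0.667 over 4 measures, smallest possible p = 0.00433), which does not show that they were equal. The median Pearson's r of log2 levels was 0.925 between 3xTg-AD mice, 0.919 between C57BL/6 mice and 0.888 between mice of different strains, over genes that are not independent replicates. S and AQ stood apart from the other 3xTg-AD mice in granulocyte and B cell genes, so results that rest on them are also given without them. Markers of red cells, platelets, neutrophils and lymphocytes were present in both strains, Xist had at most 2 reads and Y-linked genes had reads in all 11 mice.

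Levels are given as read counts per library size (CPM, scaled by TMM factors), and a log2 fold change is that of 3xTg-AD over C57BL/6 mice from the quasi-likelihood test of edgeR across all genes. Its adjusted p is that of Benjamini and Hochberg over the 15612 genes tested, and a gene with an adjusted p under 0.05 was called. Sizes of fold changes, rises and falls are on the log2 scale unless written as a ratio or as "-fold". The test called 1233 genes, 7.90% of those tested, of which 738 (4.73%) were higher and 495 (3.17%) lower in 3xTg-AD mice. Of the calls, 1036 exceeded 1 on the log2 scale, 243 exceeded 3 (111 higher and 132 lower) and 116 exceeded 5. The levels of the strains did not overlap in 986 genes (6.32%), of which 771 were among the calls. Protein-coding genes made up 1068 of the calls, and 42 were processed pseudogenes. Without 1 mouse at a time the number of calls ran from 781 (without P) to 1272 (without AY), with 797 without S, and it was 518 when S and AQ were both left out.

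Among the genes higher in 3xTg-AD mice, the smallest p belonged to transcripts that C57BL/6 mice nearly lacked. BC018473, an antisense transcript at chr11:116752167-116759373, was at 38.6, 24.7, 31.6, 25.1 and 24.1 CPM in mice O, P, R, S and AQ. Its log2 fold change was 11.30 (SE 0.46, adjusted p = 1.04e-09), and the 6 C57BL/6 mice held 1 read of it in all, in W. With that 1 read, the 95% counting interval of its ratio between the strains ran from 813 to 178856. That interval is far wider than the SE implies, so the SE does not show how exactly the size is known. AA465934, a processed transcript at chr11:83291699-83294632, was at 50.001, 41.8, 45.3, 69.9 and 72.1 CPM, and C57BL/6 mice had a lowest, median and highest level of 1.66, 1.97 and 2.96 CPM. It rose by 4.76 (SE 0.25, adjusted p = 1.74e-08), and each 3xTg-AD mouse was above each C57BL/6 mouse.

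Josd2, a Josephin-type deubiquitinase at chr7:44467980-44471662, was at 252, 274, 243, 503 and 411 CPM, and the C57BL/6 mice had 3.49, 4.94 and 9.71 CPM (lowest, median, highest), a rise of 5.93 (SE 0.36, adjusted p = 8.83e-08). The neighbouring noncoding gene 5430431A17Rik, at chr7:44473538-44486138, also rose by 4.77 (SE 0.35, adjusted p = 7.98e-07). Gdpd3 makes a phospholipase of the glycerophosphodiesterase family and lies at chr7:126766334-126775649. Its level was 80.6, 151, 131, 153 and 163 CPM, against 0, 0.145 and 0.501 CPM in C57BL/6 mice, a rise of 9.58 (SE 0.59, adjusted p = 9.36e-08). The predicted gene Gm9967 overlaps Gdpd3 on the opposite strand, and the strand setting of the counting is not given in the sources used here, so reads of the pair may be mixed. Cttnbp2, a cortactin-binding protein known from neurons (chr6:18366478-18514843), was at 7.56, 7.82, 9.195, 11.4 and 15.2 CPM, against 0.101, 0.153 and 0.359 CPM, a rise of 5.78 (SE 0.36, adjusted p = 9.95e-08). No 3xTg-AD mouse came near the C57BL/6 mice in Josd2, 5430431A17Rik, Gdpd3 or Cttnbp2.

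Genes of known metabolic function were also among those with the smallest p. Glrx, a glutaredoxin that reduces glutathionylated proteins (chr13:75839868-75850154), was already expressed in C57BL/6 mice, at 24.96, 34.6 and 57.1 CPM (lowest, median, highest), and was at 434, 409.6, 615, 436 and 422 CPM in 3xTg-AD mice. Its rise was 3.61 (SE 0.26, adjusted p = 7.21e-07), with R the highest. Gch1, which makes the first enzyme of tetrahydrobiopterin synthesis (chr14:47153895-47189413), was at 36.9, 55.1, 45.3, 41.02 and 66.7 CPM against 7.33, 8.77 and 11.8 CPM, a rise of 2.42 (SE 0.22, adjusted p = 7.34e-06). These genes were read in all mice of both strains, and their levels did not overlap.

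Among the genes lower in 3xTg-AD mice, Fgfrl1, a fibroblast growth factor receptor without a kinase domain (chr5:108692382-108706924), had the smallest p. It was at 0.147, 0, 0.0586, 0.0742 and 0 CPM (8 reads in all), and the C57BL/6 mice had 5.598, 11.6 and 15.01 CPM, a log2 fold change of -7.27 (SE 0.53, adjusted p = 6.47e-07). Its neighbour on chromosome 5, Idua, a lysosomal enzyme that degrades glycosaminoglycans (chr5:108660331-108684557), was at 0.294, 0.111, 0.351, 0.8901 and 0.901 CPM against 13.8, 21.4 and 32.3 CPM, a fold change of -5.53 (SE 0.46, adjusted p = 2.41e-06). Idua overlaps Slc26a1 on the opposite strand. Both genes stayed below 1 CPM in each 3xTg-AD mouse.

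F2rl2 encodes a protease-activated receptor of platelets (chr13:95696853-95702739). It was at 1.65, 1.77, 2.46, 3.86 and 4.61 CPM in 3xTg-AD and 35.4, 60.1 and 126 CPM in C57BL/6 mice, a fold change of -4.66 (SE 0.43, adjusted p = 9.27e-06), and it lies within Iqgap2 on the opposite strand. Hpgd, the dehydrogenase that inactivates prostaglandins (chr8:56294585-56321043), had a narrow range in both strains, 1.03, 1.55, 1.698, 1.34 and 0.795 CPM against 6.96, 7.76 and 11.01 CPM, and fell by 2.67 (SE 0.27, adjusted p = 2.37e-05). Cib3, a calcium-binding protein (chr8:72204335-72212837), had a fold change of -6.72 (SE 0.68, adjusted p = 2.37e-05), and Tpm4, a tropomyosin of the cytoskeleton (chr8:72134975-72153142), one of -3.33 (SE 0.41, adjusted p = 0.000157). Tpm4 ranged over 60.2 to 98.4 CPM in 3xTg-AD mice and over 264 to 1404 CPM in C57BL/6 mice. Atg4c, a protease that processes autophagy proteins, fell by 4.42 (SE 0.48, adjusted p = 4.31e-05), and Acp1, a small tyrosine phosphatase, by 3.29 (SE 0.30, adjusted p = 8.59e-06). Acp1 has 4 near-identical copies, which could have taken part of its reads. In each of these genes the highest 3xTg-AD mouse lay below the lowest C57BL/6 mouse.

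**Figure D1:**
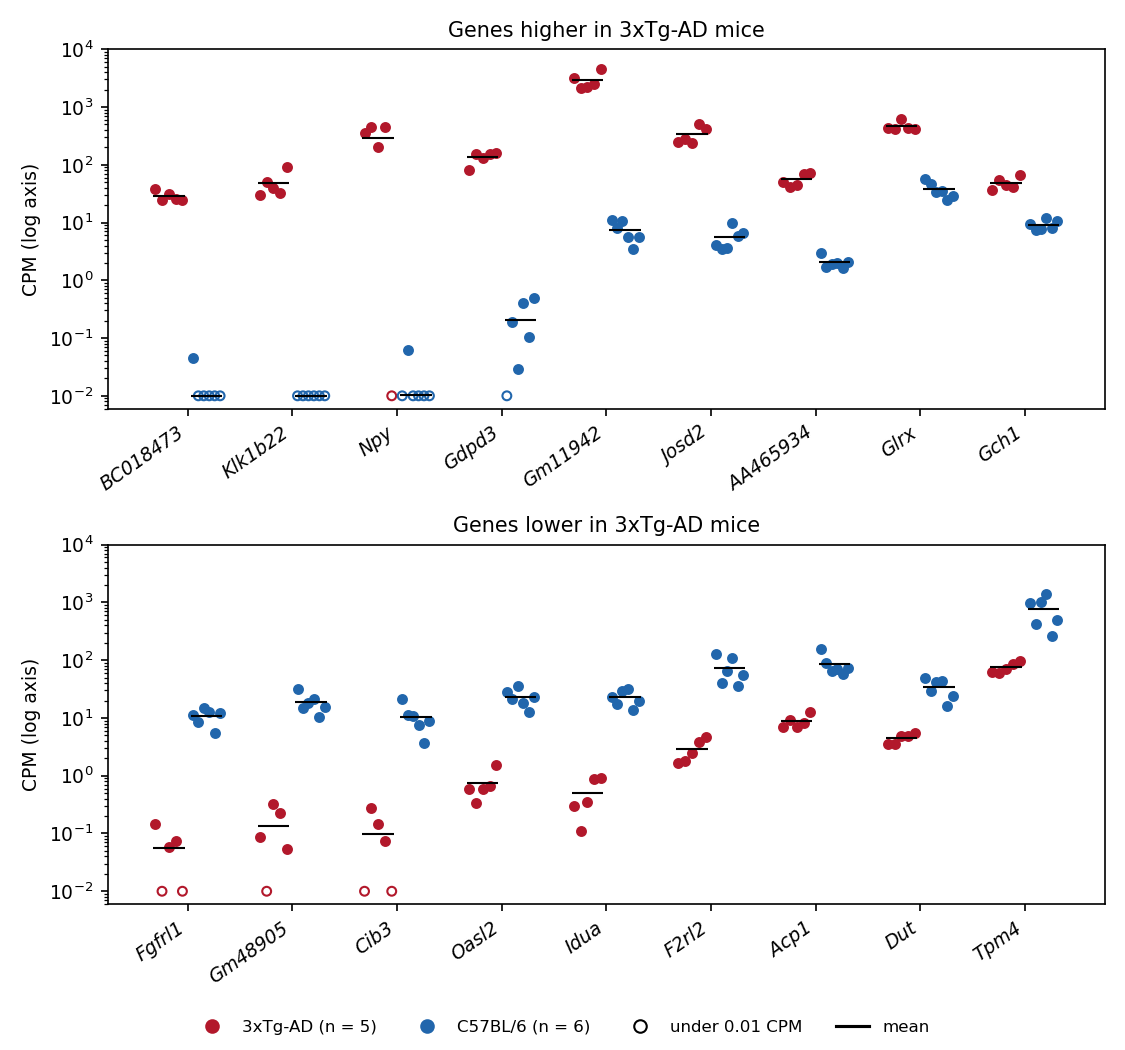
Level of 18 genes with the smallest p or an on-off pattern in each mouse, in CPM on a log axis, with 3xTg-AD and C57BL/6 mice side by side and a bar at each mean. Open circles stand for values below the lower end of the axis. Npy is near 0 in the 3xTg-AD mouse AQ (no read) and in the C57BL/6 mice, while the other 4 3xTg-AD mice lie between 203 and 451 CPM.

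Several transcripts were read in one strain only or nearly so. On-off genes were those with at most 3 reads in each mouse of one strain and at least 1 CPM in each mouse of the other, and there were 8 of them. Klk1b22, a kallikrein serine protease at chr7:44112673-44116922, had no read in the 6 C57BL/6 mice and 30.1, 49.4, 39.6, 32.3 and 92.5 CPM in 3xTg-AD mice. Against a floor of 3 reads per library it was at least 345.5-fold higher (adjusted p = 9.24e-07). It was the only one of 14 Klk1 family genes in the count table, and reads shared within such a family are not resolved by the counts. Saa3, a serum amyloid A protein of the acute phase (chr7:46711998-46715700), was at 6.0001, 1.77, 2.37, 11.9 and 7.79 CPM in 3xTg-AD mice and had 3 reads, all in BA, in C57BL/6 mice, a ratio of 313 (95% counting interval 107 to 1516) and an adjusted p of 3.65e-05. BC018473 had a ratio of 4528 (813 to 178856), Gm45104 of 426 (76.4 to 16813), Gm6768 of 285 (138 to 709) and Gm8420 of 73.1 (25.02 to 355). In the other direction, the ratio of C57BL/6 over 3xTg-AD mice was 100.1 for Zfp114 (34.3 to 485) and 193 for Gm48503 (65.9 to 934). Gm6768 shares its transcript end with Ncoa4 and Zfp114 with Gm15442, so their reads may come from either gene of the pair.

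Npy, which encodes neuropeptide Y (chr6:49822710-49829507), separated the strains in all mice but 1. It was at 356, 449, 203, 451 and 0 CPM in O, P, R, S and AQ, so that AQ had none, and the C57BL/6 mice had at most 2 reads. Its adjusted p was 7.21e-05, and it was left out by the filterByExpr filter and not called by limma voom. Over the whole study, 24 of 26 3xTg-AD mice had at least 2983 reads of Npy, the tDCS mouse AM had 3 and AQ had 0, while none of the 16 C57BL/6 mice had more than 2. AQ also stood with the C57BL/6 mice in Gm22748, a small nucleolar RNA gene, which was at 1.21, 4.33, 2.81, 1.11 and 0 CPM in 3xTg-AD mice and 0 to 0.201 CPM in C57BL/6 mice (adjusted p = 0.0124). It lay near them in Gm9967, named here after its values were seen, at 0.106 CPM in AQ, 0.8901 to 1.61 CPM in the other 3xTg-AD mice and 0 to 0.0624 CPM in C57BL/6 mice (adjusted p = 0.00192). Of the 243 calls over 3 on the log2 scale, 86 had a value within 0.5 log2 CPM of the C57BL/6 range in AQ, against 90 to 100 in the other 3xTg-AD mice. Without AQ, 973 genes were called. Elavl2, an RNA-binding protein of neurons (chr4:91250763-91400785), was similar in that P alone lay near the C57BL/6 mice, with 2.00004, 0.277, 1.38, 2.89 and 2.12 CPM in 3xTg-AD mice, 0 to 0.204 CPM in C57BL/6 mice and a fold change of 4.36 (SE 0.78, adjusted p = 0.00291). It too was left out by filterByExpr.

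Some of the largest differences lay in pairs of a gene and a near-identical copy. A copy was another annotated gene, tested or not, that aligned to the last 300 bases of a transcript. At least 95% identity over at least 100 bases was required. Of the tested genes 18.6% had one, and of the calls 18.2%. Among 8083 such pairs in which both genes were tested, both were called in 80, in opposite directions in 31 of them. Gm11942, a processed pseudogene of the ribosomal protein gene Rplp1 (chr4:32964888-32965232), was at 3235, 2093, 2179.5, 2531 and 4589 CPM in 3xTg-AD mice and 3.52, 6.801 and 11.1 CPM in C57BL/6 mice, a rise of 8.62 (SE 0.45, adjusted p = 1.74e-08). Gm11942 matches Gm10073 as well. Rplp1 itself (chr9:61913284-61914542) fell by 2.36 (SE 0.36, adjusted p = 0.000992). The sum of both was 3629 ± 1286 CPM in 3xTg-AD and 3620.5 ± 1531 CPM in C57BL/6 mice (SD, n = 5 and 6, exact permutation p = 0.913, two-sided). The copy held 79.0% to 82.3% of that sum in 3xTg-AD mice and 0.172% to 0.282% in C57BL/6 mice.

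The tRNA splicing endonuclease subunit Tsen34 (chr7:3692863-3701024) and its copy 4930526A20Rik (chr17:28075050-28076677) showed the same arrangement at low levels. Tsen34 fell by 4.98 (SE 0.47, adjusted p = 1.12e-05), the copy rose by 5.18 (SE 0.37, adjusted p = 6.47e-07), and the sums were 14.5 ± 4.49 and 18.5 ± 3.84 CPM (exact permutation p = 0.152, adjusted p = 0.202 over 4 sums). For Rps15a, a ribosomal protein gene that fell by 3.19 (SE 0.45, adjusted p = 0.000476), 4 copies held 64.7% to 76.3% of the reads in 3xTg-AD and 3.31% to 8.29% in C57BL/6 mice. Here the sum also differed, with 334 ± 137 against 941 ± 516 CPM (exact permutation p = 0.0130, adjusted p = 0.0260). Tpm4 differed as much after its copy Gm7809 was added (76.0 against 760 CPM on average, exact permutation p = 0.00433, the smallest possible, adjusted p = 0.0173). These 4 sets were chosen after their values were seen. Tdpx-ps1, a pseudogene that matches Prdx2, rose by 5.08 (SE 0.43, adjusted p = 3.26e-06).

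**Figure D2:**
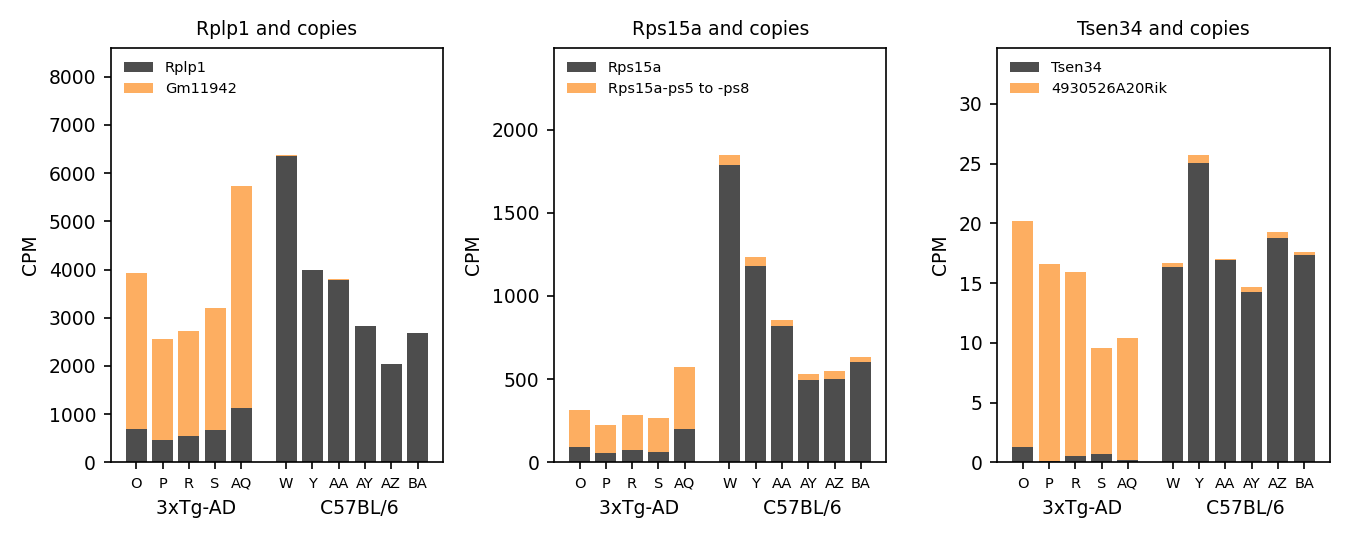
Level of 3 genes and of their near-identical copies in each mouse, in CPM, as stacked bars from 0. In the sets of Rplp1 and Tsen34 the reads lie mostly on the copy in the 3xTg-AD mice and on the parent gene in the C57BL/6 mice, with totals that overlap.

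Genes of the red cell lineage that passed the test were all higher in 3xTg-AD mice. Of 20 tested genes of the red cell membrane and of erythroid maturation, 11 rose and none fell, and the median log2 fold change was 1.18, against a median of -0.05 over all genes tested. Ermap, an erythroid membrane protein (chr4:119175457-119190011), was at 18.1, 23.02, 15.8, 15.6 and 18.9 CPM against 3.19, 4.89 and 5.57 CPM (lowest, median, highest) in C57BL/6 mice, a rise of 2.02 (SE 0.22, adjusted p = 4.31e-05). Dmtn, which makes the actin-bundling protein dematin of the red cell skeleton, was at 121, 140.2, 116, 168 and 121 CPM against 12.5, 16.1 and 51.9 CPM, a rise of 2.42 (SE 0.36, adjusted p = 0.000788). Sptb, erythroid beta-spectrin, rose by 1.87 (SE 0.33, adjusted p = 0.00276), the anion exchanger Slc4a1 by 1.59 (SE 0.36, adjusted p = 0.0144), and Klf1, a transcription factor of erythroid genes, by 1.75 (SE 0.34, adjusted p = 0.00499). In all 5 the lowest 3xTg-AD mouse was above the highest C57BL/6 mouse. Epb42, Rhd, Rhag, Kel and Trim58 were among the others called. Without 1 mouse, 8 (without P, Y or AQ) to 13 (without AY) of the list were called, and 3 without S and AQ.

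In haem synthesis, 5 of 12 genes rose, among them Alad, Urod, Ppox and the mitochondrial transporter Abcb10, none fell and the median was 1.09. AQ had the highest median level of this list, and among 3xTg-AD mice also the highest haemoglobin share of reads (30.7%) and the lowest mitochondrial share (3.35%), whose part in these genes was not tested. The calls numbered 1 without AQ, 2 without S, Y or AZ, 3 without W, AA or BA, and 6 without AY. None of the 9 haemoglobin chain genes was called (median 0.43), their summed level was 166147 to 485039 CPM in the 3xTg-AD group and 84697 to 445139 CPM in the C57BL/6 group, and globin transcripts were depleted before sequencing. With the haemoglobin share of each library as covariate, 1317 genes were called in all, among them each of the 5 erythroid genes given with values.

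The platelet genes that passed the test were lower in 3xTg-AD mice. All 18 platelet genes had a negative log2 fold change, with a median of -0.72, and 4 fell (Ppbp, Cd9, Gp9 and Mpig6b). Ppbp, the precursor of a platelet chemokine (chr5:90768518-90770063), was at 1161, 915, 1289, 1492 and 1619.8 CPM in 3xTg-AD and 1929.7, 3849 and 7961 CPM in C57BL/6 mice, a fold change of -1.78 (SE 0.38, adjusted p = 0.00998). The strains did not overlap in Ppbp, but they did in Cd9, a membrane tetraspanin, which fell by 1.64 (SE 0.37, adjusted p = 0.0140). Pf4, platelet factor 4, did not pass the test, with a fold change of -1.13 (SE 0.37, adjusted p = 0.0719). The count of platelet calls was 2 without O, P, R, S or W and 6 without AZ. Of 20 genes of coagulation and fibrinolysis, 4 fell (F2rl2, Serpine2, Hpse and Pros1), 1 rose (Plaur) and the median was -0.47. Serpine2, an inhibitor of thrombin (chr1:79794197-79861180), was at 17.1, 20.8, 12.8, 17.95 and 12.6 CPM against 32.5, 70.9 and 140.1 CPM, a fall of 2.19 (SE 0.33, adjusted p = 0.000966), and Hpse, the heparanase of platelets, fell by 1.53 (SE 0.35, adjusted p = 0.0161). Both were lower in each 3xTg-AD mouse than in any C57BL/6 mouse. The calls of this list numbered 3 without R, S or W and 4 without any other mouse.

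Genes of neutrophil granules were higher in 3xTg-AD mice, most of all in S and AQ. Of 16 neutrophil genes, 8 rose and none fell, with a median of 2.13. Called or not, 14 had a log2 fold change above 0 and 2 had one below 0. Of these 2, 1 was lower in each 3xTg-AD mouse than in any C57BL/6 mouse. Camp, the antimicrobial peptide cathelicidin (chr9:109847379-109849617), was at 55.8, 29.1, 50.8, 247 and 500.2 CPM in 3xTg-AD and 0, 0.328 and 2.92 CPM in C57BL/6 mice, a rise of 7.32 (SE 1.13, adjusted p = 0.00105). Ngp, a granule protein of the cathelicidin type, was at 145, 67.1, 99.5, 605 and 924 CPM against 0, 1.24 and 6.46 CPM and rose by 7.49 (SE 1.19, adjusted p = 0.00126). Lcn2, the iron-sequestering lipocalin, was at 42.6, 24.02, 46.9, 150.1 and 215 CPM against 3.64, 5.496 and 9.704 CPM and rose by 4.02 (SE 0.51, adjusted p = 0.000198), and Ltf, lactotransferrin, rose by 4.55 (SE 0.73, adjusted p = 0.00138). The strains did not overlap in these 4. Ly6g, the surface marker of mouse neutrophils, rose by 3.53 (SE 0.72, adjusted p = 0.00769) with overlapping levels. The others called were Cd177, Mmp8 and S100a8, and the receptor genes Csf3r and Cxcr2 were not called.

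The summed level of the neutrophil list was 3052, 2723, 3835, 15343 and 15961 CPM in O, P, R, S and AQ and 906 to 3882 CPM in C57BL/6 mice, so that O, P and R lay within the range of the C57BL/6 mice. Without both S and AQ, a choice made after seeing the values, 4 of the 16 were called and the median was 0.74. With 1 mouse left out, 5 (without S or AQ) to 9 were called. In the list of eosinophil and basophil genes, 3 of 11 rose and none fell (median 0.19). Called or not, 6 of the 11 had a log2 fold change above 0 and 5 had one below 0. Prg2, the eosinophil major basic protein, was at 6.82, 13.4, 15.8, 73.7 and 68.5 CPM against 0, 0.451 and 1.1404 CPM and rose by 5.88 (SE 0.70, adjusted p = 9.83e-05). Ear6, an eosinophil ribonuclease, rose by 5.72 (SE 0.75, adjusted p = 0.000255), and Mcpt8, a protease of basophils, by 2.35 (SE 0.42, adjusted p = 0.00269). All 3 were also called without S and AQ and did not overlap between the strains. Of 14 monocyte genes 3 rose (median 0.67), and 5 without R. Among them was the lectin Clec4a1, at 169, 88.8, 43.1, 118 and 109 CPM against 35.7, 38.7 and 48.2 CPM, a rise of 1.39 (SE 0.27, adjusted p = 0.00574), in which R lay within the C57BL/6 range.

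**Figure D3:**
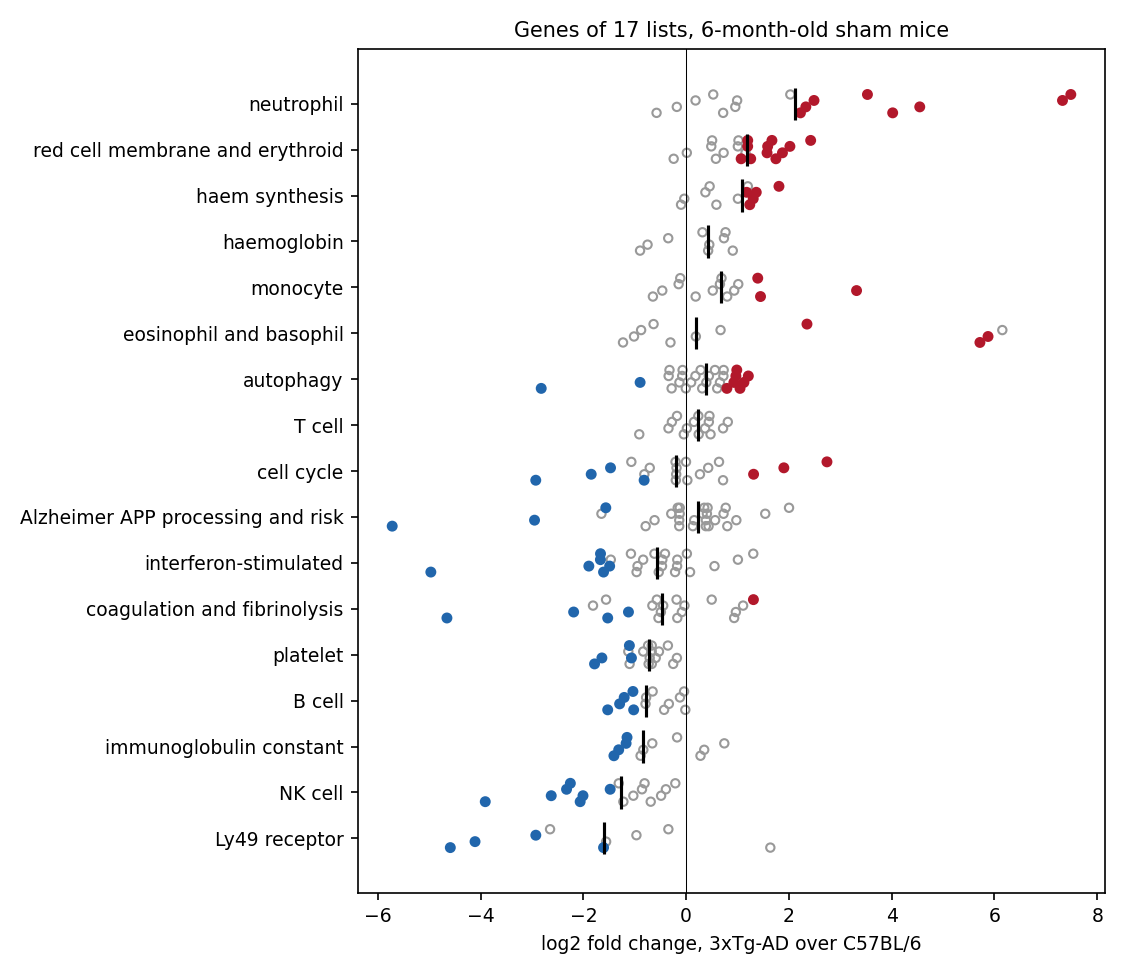
Log2 fold change of 3xTg-AD over C57BL/6 mice for each tested member of 17 gene lists, with filled points for called genes and a bar at the median of each list. The red cell, haem synthesis and neutrophil lists have medians of 1.18, 1.09 and 2.13, and the NK cell and Ly49 lists medians of -1.27 and -1.61.

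The B cell genes that passed the test were lower in 3xTg-AD mice. All 13 had a negative log2 fold change (median -0.78), though that of Ms4a1 was only -0.04 and turned positive without S or without AQ. Of the list, 5 fell, among them Fcer2a, Cd79b, Blk and H2-Ob. Cd79b, a chain of the B cell receptor (chr11:106311341-106314762), was at 80.4, 72.6, 88.97, 62.7 and 49.1 CPM in 3xTg-AD and 124, 169.6 and 193 CPM in C57BL/6 mice, a fall of 1.21 (SE 0.23, adjusted p = 0.00402). Fcer2a, the low-affinity IgE receptor, fell by 1.53 (SE 0.28, adjusted p = 0.00365). In both genes the strains did not overlap. S and AQ, the highest mice in the neutrophil list, had the lowest median level of the B cell list. A fit of all 42 mice called 2 of the list, and so did the fit without S and AQ. The constant regions of immunoglobulins went the same way, with 4 of 11 genes lower (Iglc1, Iglc2, Iglc3 and Igkc), none higher and a median of -0.83. Iglc1, a lambda light chain, was at 34.4, 37.995, 50.1, 23.8 and 20.7 CPM against 75.5, 86.9 and 104 CPM and fell by 1.41 (SE 0.24, adjusted p = 0.00236). Without S, 2 of these genes were called. None of 7 plasma cell genes (median -0.17) and none of 15 T cell genes (median 0.24) was called, apart from 1 T cell gene without AY.

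Of 16 genes of natural killer (NK) cells, 7 fell in 3xTg-AD mice, none rose and 9 were not called. The log2 fold changes of all 16 were negative with a median of -1.27, and among the 7 the strains overlapped in Klrc1 alone. Klrb1c, the NK1.1 receptor (chr6:128778485-128789215), was at 0.882, 0.943, 1.84, 1.41 and 1.38 CPM in 3xTg-AD and 2.93, 8.57 and 12.2 CPM in C57BL/6 mice, a fold change of -2.63 (SE 0.37, adjusted p = 0.000512). Gzma, the protease granzyme A of cytotoxic granules (chr13:113093825-113100981), was at 13.2, 15.7, 25.04, 20.7 and 14.7 CPM against 30.6, 51.2 and 62.5 CPM and fell by 1.48 (SE 0.24, adjusted p = 0.00165). Klrk1, the activating receptor NKG2D, fell by 2.25 (SE 0.42, adjusted p = 0.00360), and Klrc2, a lectin-like receptor, by 3.91 (SE 0.68, adjusted p = 0.00238). The summed level of the 16 genes was 83.1, 104, 133, 118 and 93.4 CPM in the 3xTg-AD mice, below the 177 to 230.4 CPM of the C57BL/6 mice in each case. The other calls were Klre1, Klrc1 and Xcl1, so that all calls but Gzma and Xcl1 were Klr receptor genes. Klrb1c lies close to the Ly49 genes on chromosome 6, of which Klra7 is at chr6:130218605-130233322. The part of position in the Klr calls was not tested, so they may not be independent markers of NK cells. The genes not called were Ncr1, Klrd1, Gzmb, Prf1, Eomes, Nkg7, Ccl5, Il2rb and Fasl. Klrc1 and Klrc2 are near-identical at their ends, so their reads are uncertain. The list had 7 or 8 calls with any single mouse left out, 6 in the fit of all 42 mice and 5 without S and AQ.

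The Ly49 receptors bind class I major histocompatibility molecules on target cells, and mouse strains differ in which of these genes they carry. Of the 9 members tested of 12, 4 fell (Klra3, Klra4, Klra8 and Klra9) and the median was -1.61. Klra8 was at 0.0882, 0.0555, 0.117, 0.148 and 0 CPM against 0.749, 1.25 and 2.604 CPM, a fold change of -4.11 (SE 0.63, adjusted p = 0.000971), and Klra9 had a fold change of -4.59 (SE 0.88, adjusted p = 0.00487). Klra17 went the other way without passing the test, at 1.64 (SE 0.57, adjusted p = 0.0898). Several members of this family have near-identical copies. In 3xTg-AD mice, Klra8 had at most 4 reads and Klra9 at most 5 in any library, close to the floor of 3 reads per library (0.0778 to 0.303 CPM), while Klra2, which was not called, was at 10.7 ± 3.92 against 13.6 ± 7.96 CPM (SD, n = 5 and 6). A fit of all 42 mice called 2 of the family, and the count was 3 without P, S, W or Y.

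**Figure D4:**
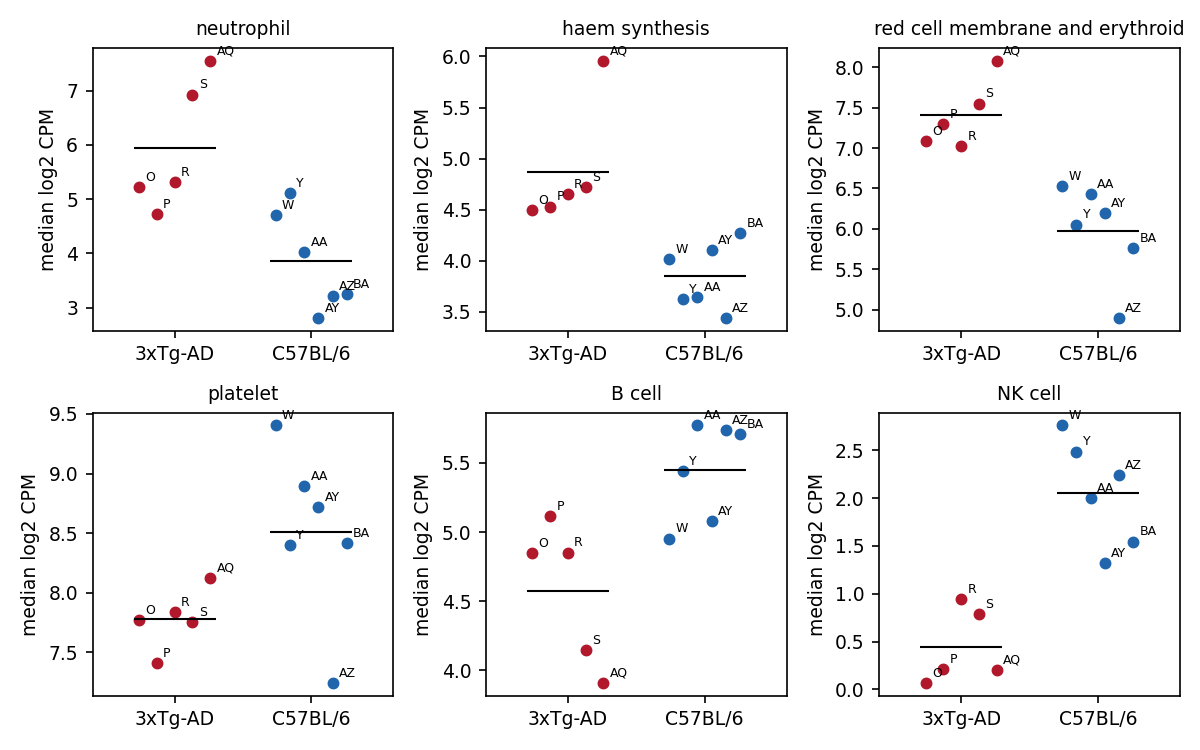
Median log2 CPM of the genes of 6 lists in each mouse, by strain. The NK cell list is lower in each 3xTg-AD mouse than in any C57BL/6 mouse, and S and AQ stand highest in the neutrophil list.

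The interferon-induced genes that passed the test were lower in 3xTg-AD mice, while the most abundant one leaned the other way. Of 24 interferon-stimulated genes, 6 fell (Oasl2, Irf7, Ifit1, Zbp1, Rtp4 and Ifit3b), none rose and the median was -0.58. Oasl2, an oligoadenylate synthetase-like protein (chr5:114896936-114912234), was at 0.588, 0.333, 0.586, 0.668 and 1.54 CPM in 3xTg-AD and 12.8, 22.1 and 35.8 CPM in C57BL/6 mice, a fold change of -4.97 (SE 0.40, adjusted p = 1.90e-06). Irf7, a transcription factor that amplifies interferon production (chr7:141262706-141266481), was at 27.6, 25.96, 30.02, 20.2 and 26.9 CPM against 50.2, 97.8 and 134 CPM and fell by 1.89 (SE 0.26, adjusted p = 0.000340). Ifit1, a sensor of foreign RNA (chr19:34640871-34650009), was at 16.9, 16.97, 15.6, 13.4 and 17.6 CPM against 29.4, 46.3 and 84.2 CPM and fell by 1.67 (SE 0.28, adjusted p = 0.00188). Zbp1, a nucleic acid sensor, fell by 1.67 (SE 0.30, adjusted p = 0.00288) and Rtp4 by 1.49 (SE 0.32, adjusted p = 0.0104). In these genes other than Rtp4 the strains did not overlap. Rsad2, the antiviral protein viperin, made up most of the summed level of the list, at 14347 ± 5538 against 7141 ± 3002 CPM (SD, n = 5 and 6), with a fold change of 1.01 (SE 0.38, adjusted p = 0.116). Irf7 overlaps Phrf1. The number of calls was 5 to 7 with any 1 mouse left out, 4 in a fit of all 42 mice and 10 with DESeq2.

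Interferon acts through factors that bind repeats of GAAA. The promoters of the 3 interferon genes with the smallest p are shown because they differ in this motif, from 250 bases before to 30 bases after the start in the RefSeq table (GRCm38.p6), with matches to GAAA, any 2 bases and GAAA again on either strand in capitals. Matches can overlap one another.
Ifit1, plus strand, chr19:34640639-34640918: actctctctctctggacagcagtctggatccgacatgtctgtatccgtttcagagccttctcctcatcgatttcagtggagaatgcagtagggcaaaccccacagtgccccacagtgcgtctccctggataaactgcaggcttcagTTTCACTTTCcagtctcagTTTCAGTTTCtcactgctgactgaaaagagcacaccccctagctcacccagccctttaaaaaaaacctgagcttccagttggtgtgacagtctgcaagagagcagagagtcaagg
Irf7, minus strand, chr7:141266395-141266674: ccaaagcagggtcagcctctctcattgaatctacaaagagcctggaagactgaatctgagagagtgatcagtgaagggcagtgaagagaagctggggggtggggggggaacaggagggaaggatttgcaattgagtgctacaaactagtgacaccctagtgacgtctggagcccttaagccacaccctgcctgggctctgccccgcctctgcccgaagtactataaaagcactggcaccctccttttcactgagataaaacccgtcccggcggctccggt
Oasl2, plus strand, chr5:114896684-114896963: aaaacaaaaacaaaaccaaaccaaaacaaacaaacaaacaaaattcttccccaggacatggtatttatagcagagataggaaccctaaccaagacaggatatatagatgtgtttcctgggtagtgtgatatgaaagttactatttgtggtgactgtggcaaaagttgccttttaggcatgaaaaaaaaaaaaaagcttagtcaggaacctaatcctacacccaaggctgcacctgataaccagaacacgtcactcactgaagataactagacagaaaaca
The window of Ifit1 held 2 matches, the first beginning 104 bases before the start, and those of Irf7 and Oasl2 held none, which says only that these letters are not in the windows. Over the 300 bases given for each gene, 9 of the 16 interferon-stimulated genes with a promoter in the table held the motif (56.3%), against 1079 of 27025 genes (3.99%), and 8 genes of the list were missing from the table. Both kinds of promoter thus occurred among the genes that fell.

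Autophagy genes included calls in both directions. Of 27 tested, 7 rose (Rb1cc1, Ulk1, Becn1, Atg4b, Nbr1, Sqstm1 and Optn), 2 fell, among them Fundc1, and the median was 0.39. Atg4c, which fell by 4.42, was not in this list. Rb1cc1, a scaffold of the complex that starts autophagosome formation (chr1:6206197-6276648), was at 29.5, 42.8, 37.2, 37.98 and 35.5 CPM in 3xTg-AD and 16.2, 17.4 and 19.7 CPM in C57BL/6 mice, a rise of 1.05 (SE 0.18, adjusted p = 0.00185). Ulk1, the kinase of the same complex, was at 58.9, 39.5, 35.8, 35.8 and 55.97 CPM against 16.9, 23.97 and 30.6 CPM and rose by 0.93 (SE 0.22, adjusted p = 0.0163). The strains overlapped in neither gene. These calls were sensitive to the mice in the fit, with 4 of the list called without AA, 5 without O, P, S, AQ, W or Y, 2 in a fit of all 42 mice, in which Rb1cc1 and Ulk1 were not called, and 1 without S and AQ.

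Cell cycle genes were called in both directions. Of 20 tested, 3 rose, 4 fell and 13 were not called, with a median of -0.19. Mki67, the proliferation antigen (chr7:135689784-135716361), was at 65.1, 96.3, 95.1, 99.2 and 87.1 CPM in 3xTg-AD and 6.76, 13.1 and 20.8 CPM in C57BL/6 mice, a rise of 2.74 (SE 0.29, adjusted p = 3.65e-05). Ccnb2, a mitotic cyclin, rose by 1.90 (SE 0.30, adjusted p = 0.00136), and Birc5, the mitotic protein survivin, by 1.31 (SE 0.25, adjusted p = 0.00450). Dut, the dUTPase (chr2:125247190-125258608), was at 3.56, 3.55, 4.803, 4.97 and 5.46 CPM against 16.1, 35.6 and 48.8 CPM and fell by 2.93 (SE 0.30, adjusted p = 2.52e-05), and Rrm2, a subunit of ribonucleotide reductase, was at 2.71, 2.94, 1.96, 2.23 and 1.696 CPM against 5.26, 8.45 and 12.03 CPM and fell by 1.85 (SE 0.28, adjusted p = 0.000807). Mcm6, part of the replicative helicase, fell by 1.47 (SE 0.33, adjusted p = 0.0132) with overlapping levels, and Pcna was the last of the 4. The number of calls in the list was 6 or 7 with any 1 mouse left out and 5 without S and AQ.

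Of 28 genes of APP processing and of risk of Alzheimer's disease, 3 fell (10.7%, near the 7.90% called over all genes), none rose, and the median was 0.24. Apoe, the apolipoprotein of lipid transport (chr7:19696109-19699188), was at 10.9, 8.21, 32.9, 2.89 and 7.79 CPM in 3xTg-AD and 57.6, 80.9 and 152 CPM in C57BL/6 mice, a fall of 2.95 (SE 0.51, adjusted p = 0.00217), and R, the highest 3xTg-AD mouse, was below each C57BL/6 mouse. Trem2, a receptor of myeloid cells, was at 5.21, 7.93, 13.9, 7.94 and 13.7 CPM against 10.4, 28.2 and 47.1 CPM and fell by 1.56 (SE 0.37, adjusted p = 0.0184), with overlap and an adjusted p of 0.0508 without P. Mme, which makes neprilysin, an enzyme that degrades the Abeta peptide, had reads above 1 CPM in AY, AZ and BA only, with levels of 0, 0.0555, 0.0879, 0.0742 and 0 CPM in 3xTg-AD (5 reads in all) and 0, 1.16 and 7.72 CPM in C57BL/6 mice. Its adjusted p was 0.0436, and it was called in 3 of the 11 fits without 1 mouse and not by DESeq2 or limma voom. Mouse App was not called, with a fold change of 0.40 (SE 0.31, adjusted p = 0.457), nor were Mapt at 2.002 (SE 0.93, adjusted p = 0.206) and Thy1 at -0.59 (SE 0.21, adjusted p = 0.108). Reads of the human transgenes were not analysed here.

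Along the chromosomes, the share of called genes lay between 5.40% on chromosome 3 and 10.8% on chromosome 8, apart from chromosome Y, where 1 of 7 genes was called (14.3%), and the mitochondrial genome. On the latter, 8 of 24 genes were called (33.3%), 7 of them lower in 3xTg-AD mice. mt-Nd4, a subunit of complex I (chrM:10167-11544), was at 1717, 860.1, 1404, 1260.0 and 1013 CPM in 3xTg-AD and 3863, 4984 and 6841 CPM in C57BL/6 mice, a fall of 2.02 (SE 0.30, adjusted p = 0.000718). mt-Cytb, the cytochrome b of complex III, was at 1688, 911, 2249, 1947 and 2339 CPM against 4489.7, 7122 and 8839 CPM and fell by 1.91 (SE 0.34, adjusted p = 0.00262). The strains did not overlap in either gene, while the share of all reads on mitochondrial genes was 7.21% ± 2.55 and 9.18% ± 1.61 (exact permutation p = 0.177, adjusted p = 0.667). The mitochondrial calls numbered 5 without P or S and at most 10 without any 1 mouse.

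Of 263 windows of 10 Mb with at least 10 tested genes, the median share called was 7.06%. After the mitochondrial genome, the highest shares were 6 of 18 genes (33.3%) on chromosome 8 from 50 to 60 Mb, where Hpgd lies, and 19 of 59 genes (32.2%) on chromosome 6 from 130 to 140 Mb. The latter holds the Ly49 genes, and 10 of its calls were higher and 9 lower. On chromosome 8 the count was 3 without O, P or R. Within 10 Mb of Npy 5 of 120 genes were called (4.17%), below the share over all genes. Near Npy, 3 genes were called without P, S, W or Y and 8 without AY.

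Markers of other tissues and of cell stress were not called. Of 12 immediate early genes (median 0.30), 16 keratinocyte genes (median 1.21) and 5 skeletal muscle genes (median 0.15), none passed the test, though 1 keratinocyte gene did without O or without R. The summed keratinocyte level was 56.7 to 673 CPM in 3xTg-AD and 203 to 656 CPM in C57BL/6 mice, and that of muscle 4.52 to 6.41 and 2.54 to 7.89 CPM.

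The same contrast of strains was then followed in other mice of the study, none of which entered the comparison above. These were 3 against 3 sham mice of 3 months (3 mo.), 8 against 3 tDCS mice with the hippocampal electrode and 6 against 4 tDCS mice with the prefrontal electrode. The tests there called 58 (0.373%), 219 (1.40%) and 476 (3.07%) genes, with 18 to 657 (without AS), 57 to 244 and 224 to 691 when 1 mouse was left out. Of the 1233 calls in 6 mo. hippocampal sham mice, 906 of 1231 tested (73.6%) had the same direction at 3 mo., 1126 of 1233 (91.3%) in hippocampal and 1086 of 1225 (88.7%) in prefrontal tDCS mice. Over all genes tested the shares were 54.7%, 66.4% and 63.0%. Calls with strains that did not overlap kept their direction in 82.2%, 96.4% and 94.7%, and those that overlapped in 59.3%, 82.9% and 78.5%. Among calls over 3 on the log2 scale, the 117 with overlap had 35.04%, 56.4% and 57.3%, and the 126 without overlap 90.3%, 96.0% and 92%.

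Of the calls, 46, 173 and 299 were also called in the 3 other comparisons, 79.3%, 79.0% and 62.8% of the genes called there and 3.73%, 14.03% and 24.2% of those called here, all in the same direction. The calls in all 4 comparisons numbered 34, of which 3xTg-AD mice had 19 at higher and 15 at lower levels. Besides Npy, Klk1b22, BC018473, Gdpd3, Gm11942, Josd2, AA465934 and Glrx among the higher and Fgfrl1, Idua, F2rl2, Hpgd, Tpm4 and Serpine2 among the lower genes, these included Camp and Dut. The log2 fold changes of Camp were 4.58, 6.72 and 5.75 in the order given and those of Dut -3.81, -3.09 and -2.91. Among those not described so far, Auh, an enzyme of leucine breakdown, and Trdc, the constant region of the T cell receptor delta chain, were higher in all 4, by 2.29 and 3.61 in the 6 mo. sham mice, and were named after their values were seen.

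Gene lists differed in how they held in these mice. For the NK cell list the medians were -0.90, -0.64 and -1.27, all below 0 as in 6 mo. sham mice. The erythroid list had 0.25, 0.28 and 1.49 and the platelet list -1.66, -1.22 and 0.01. The neutrophil list had medians of -0.76, 2.22 and 1.69, below 0 at 3 mo. and above 0 in the tDCS mice. The B cell list had 0.06, -0.78 and -1.44. At 3 mo., 1 of 16 neutrophil genes (Camp), 1 NK cell gene and no erythroid, platelet or B cell gene was called.

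**Figure D5:**
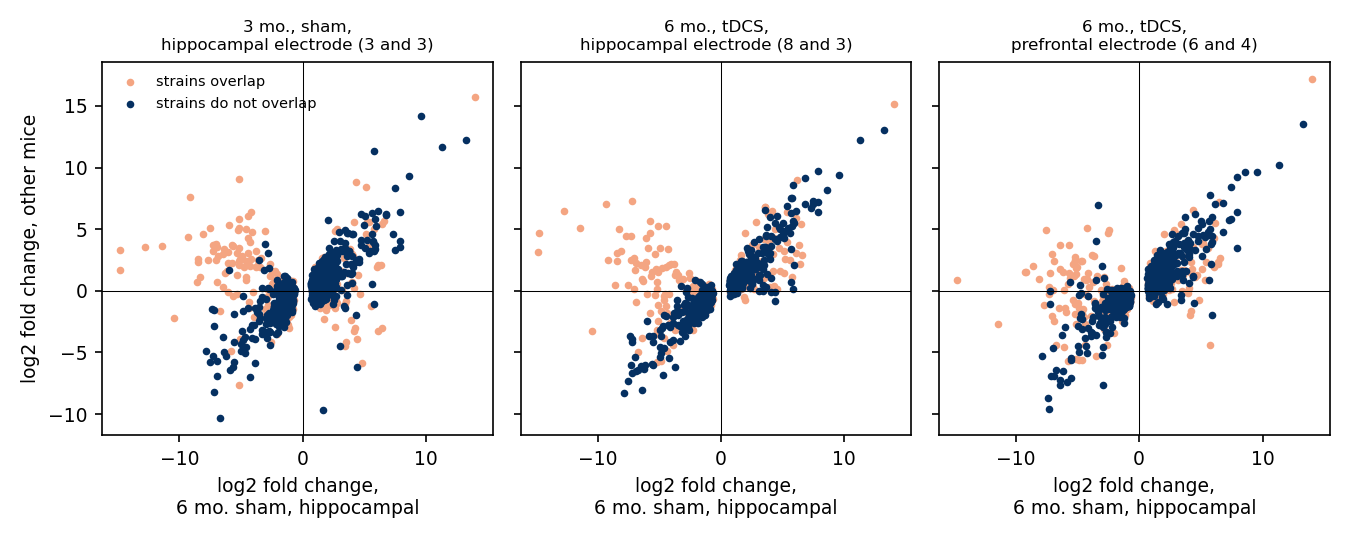
Log2 fold change of the genes called in 6 mo. hippocampal sham mice (horizontal axis) against that in 3 mo. sham, hippocampal tDCS and prefrontal tDCS mice (vertical axes). Dark points are genes in which the strains do not overlap in the 11 mice, orange points the others, and the dark points lie in the quadrants of equal sign in 82.2%, 96.4% and 94.7% of cases.

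Whether the difference between the strains itself depended on age or stimulation was tested by interaction. Between 6 mo. and 3 mo. sham mice, 6 of 15613 genes (0.0384%) differed in the strain effect. Cttnbp2 was higher in 3xTg-AD mice at both ages. At 3 mo. C57BL/6 mice had no read and 3xTg-AD mice 278 to 292 reads, at least 99.2-fold higher against a floor of 3 reads per library (6.63 on the log2 scale, beside 5.78 at 6 mo.). The fitted difference of log2 fold changes (5.85, SE 1.01, edgeR adjusted p = 0.0464) rests on that group without reads and is no measure of its size. Lyst, a regulator of lysosome size, was higher at 6 mo., by 1.41 (SE 0.24, adjusted p = 0.00186), and its fold change at 3 mo. was -1.09 (difference -2.47, adjusted p = 0.0464). Redrum, a noncoding gene of erythroid cells, rose at 6 mo. by 1.62 (SE 0.34, adjusted p = 0.00826) and had no read in the 3 mo. 3xTg-AD mice and 16 to 160 reads in the C57BL/6 mice (at least 29.3-fold lower against the floor, fitted difference -11.47, adjusted p = 0.0164). Id3, a repressor of transcription factors, had a fold change of 0.03 (SE 0.25, adjusted p = 0.956) at 6 mo. and of 3.05 at 3 mo. (difference 3.05, adjusted p = 0.0208). The other 2 were 4833407H14Rik (difference -2.78) and Ddr1 (6.42, with 1 read in all in the 3 mo. C57BL/6 mice), both with an adjusted p of 0.0464. The count was 0 without any 1 of the 3 younger 3xTg-AD mice and 320 without the younger C57BL/6 mouse AS.

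Between sham and tDCS mice of 6 months with the hippocampal electrode, 0 of 15613 genes differed in the strain effect with edgeR and with DESeq2. An unadjusted p under 0.05 was found for 856 genes, and the smallest adjusted p was 0.617. With 3 C57BL/6 tDCS mice, that does not show that the strain effect was equal.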

How the data were processed

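Whole blood RNA of 42 mice was depleted of globin transcripts and sequenced from the 3′ ends of polyadenylated transcripts. The authors trimmed the reads with cutadapt 1.14, discarded short and low-quality reads, aligned them to mm10 with STAR 2.6 and deposited raw read counts per gene for 15613 genes with sufficient reads. The strand setting of the counting is not given in the sources used here. The comparison and all gene lists were chosen with earlier results of these data known.

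The counts of the 11 mice were tested with the quasi-likelihood test of edgeR 4.0.16 in R 4.3.3 (TMM normalization, genes with at least 1 read, strain as the only term), with Benjamini-Hochberg adjustment over all genes at 0.05. The paper's model also held the RNA integrity number, which the labels do not give. RNA integrity was therefore not adjusted for, and whether it differed between the strains is not known here. The other strain comparisons were fitted within their own mice, and interactions over the 4 groups concerned. CPM were computed on TMM-scaled library sizes, with a prior count of 2 on the log scale. Single values were compared by exact permutation (scipy 1.17.1). Alternatives were DESeq2 1.42.0, limma 3.58.1 with voom, RLE factors, filterByExpr, a haemoglobin covariate, other sets of mice and each mouse left out. Floors are 3 reads per library, and intervals and floors cover counting error only. For genes with few reads in one strain, such as BC018473, Fgfrl1, Cib3 and Klra9, the printed SE can understate that error. Copies of transcript ends were found with BLAST+ 2.17.0. Coordinates, gene names and biotypes are those of the mm10 annotation for 15607 of the 15613 identifiers, and promoters are from RefSeq on GRCm38.p6.

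Genes named were the 15 with the smallest p in each direction, members of the lists, genes that the study tabulates, on-off genes, genes in which 1 or 2 of the 3xTg-AD mice stood with the C57BL/6 mice, called genes of the 3 windows with the largest share called, and the genes with the smallest interaction p. Some genes that these rules cover are not reported here. In data simulated from these 11 mice (15608 genes, 50 changed at each size), the test recovered 6% of genes changed by 1, 78% by 2, 94% by 3 and 100% by 4 on the log2 scale. The changed genes were drawn from those with a mean of at least 50 reads, so these shares do not cover genes with fewer reads. Each library came from 1 mouse, so p-values measure the spread between mice.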

Additional observations from a re-analysis of the deposited data

Results flagged for a closer look

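Within each strain, the mouse at either end was compared with its nearest neighbour by the gap divided by the whole range of the group (Dixon's ratio on log2 CPM for genes, and on the measured scale for libraries). This set 20 of 240 groups apart, where about 1 in 20 would be set apart among independent, normally distributed groups. The count is no test here, because the groups share mice and some genes were named because a mouse stood apart. Ratios of 1 rest on the only reads of a gene in a strain. Among 3xTg-AD mice, R had the most genes with a read (ratio 0.735) and the highest Glrx (0.849), AQ had the lowest Npy (0.907), the lowest Gm6768 (0.937) and Gm9967 (0.749) and the highest median of the haem synthesis list (0.847). O and S held the only reads of Zfp114 and Gm48503 (ratio 1 in both cases). Among C57BL/6 mice, W had the highest share of mitochondrial reads (0.793), AA the highest Hpgd (0.650), and AZ the lowest 5430431A17Rik (0.649), Klf1 (0.654) and Ccnb2 (0.890). AY had the lowest Prg2 (0.658) and Klrk1 (0.656), and it was the library with the fewest reads. The only reads in C57BL/6 mice lay in W for BC018473, in AA for Gm45104, in Y for Npy and Gm9967 and in BA for Saa3 (ratio 1 in these cases).

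In 6 genes the strain difference at 3 mo. was unlike that at 6 mo. by the interaction test. The difference of the log2 fold changes (3 minus 6 months) was -11.47 for Redrum, 3.05 for Id3, -2.78 for 4833407H14Rik, 6.42 for Ddr1, -2.47 for Lyst and 5.85 for Cttnbp2. At 3 mo. the C57BL/6 mice had no read of Cttnbp2 and 1 of Ddr1, and the 3xTg-AD mice had none of Redrum, so the fitted sizes of these 3 differences are not measured.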

How the results depend on the processing

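The 1233 calls were 1822 with DESeq2, 1214 with RLE factors, 1191 under filterByExpr, 1366 with limma voom, 952 with all 42 mice, 1317 with the haemoglobin covariate, 1229 without haemoglobin genes, 1045 with the prefrontal sham mice added and 781 to 1272 without 1 mouse. Without S and AQ, chosen after seeing the data, 518 were called, 477 of them (38.7%) among the 1233. That fit also moved the median of the neutrophil list to 0.74 and of the Alzheimer list to 0.046. It left 1 call near Npy, 4 on the mitochondrial genome, 3 in the chromosome 8 window and 10 in the chromosome 6 window. DESeq2 called 489 genes at 3 mo., 575 in hippocampal and 1073 in prefrontal tDCS mice and 292 for strain by age, and all 42 mice called 2 near Npy. Without 1 mouse these counts ran from 18 to 657, 57 to 244, 224 to 691 and 0 to 320, and the windows from 3 to 8 near Npy, 5 to 10 on the mitochondrial genome, 3 to 6 on chromosome 8 and 13 to 19 on chromosome 6. Of 84 called genes described, 14 lost the call in 30 of 1675 fits, 10 of them without S and AQ, and none changed sign. These 84 include the genes with the smallest p. Of all 1233 calls, 61.3% (without P) to 85.8% (without AY) were kept when 1 mouse was left out. Of 11 genes not called, App turned to -0.18 and Ms4a1 to 0.32 without S and AQ, Id3 to -0.016 with voom, and without 1 mouse Id3 ran from -0.15 to 0.20 and Ms4a1 from -0.27 to 0.16. Apart from smaller groups, the cause of these moves was not tested. No paired analysis was possible because the replicate numbers were given in accession order and the labels pair no mice. Library depth set the floor between 0.0778 and 0.303 CPM, and levels below it rest on fewer than 3 reads.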
